A study of Mus musculus with 12 samples.

Results

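Of the genes that hypoxia-inducible factor 1 (HIF1) is known to switch on, 10 that do not encode glycolytic enzymes or glucose transporters were followed across the 4 groups of this study. They were Adm, Vegfa, Ero1a, P4ha1, P4ha2, Bnip3, Ddit4, Ndrg1, Ankrd37 and Bhlhe40, taken as a named set, and they are 10 of the 18193 genes that a probe set of the array names alone. All 10 were measured, by 19 such probe sets, and each gene was represented by its probe set of highest mean signal.

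The cells were bone marrow-derived macrophages (BMDMs), grown from marrow in medium with M-CSF for 6 days, from mice 6 to 10 weeks old. WT mice were C57BL6 in the labels (C57BL/6 in the methods), and Nos2-/- mice, which lack inducible nitric oxide (NO) synthase from the germ line on, were B6.129P2-Nos2tm1Lau/J by the study's methods. Both genotypes were left untreated, which the methods describe as vehicle (PBS) and the labels as before stimulation, or received LPS at 100 ng/mL together with IFNγ at 50 ng/mL for 8 h (stimulated). Each of the 4 groups had 3 biological replicates, hybridized to 1 Affymetrix Mouse Genome array each, so 12 arrays were made, and with 3 per group their number sets the precision. Values are log2 signals from RMA, which corrects background, equalizes the distributions of the arrays and summarizes the probes of a probe set. A difference of 1 on this scale is 2-fold. Groups were compared with limma, and a gene was called higher or lower at a Benjamini-Hochberg adjusted p under 0.05 over all 18193 genes, with no minimum fold.

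HIF1 pairs an oxygen-regulated subunit, HIF1a, with a constitutive partner. Prolyl hydroxylases of the Egln family, which need oxygen and iron, mark HIF1a for destruction by the Vhl ubiquitin ligase, so the protein builds up when they are slowed. In macrophages LPS raises HIF1a also in normal oxygen, and NO can add to this by acting on the hydroxylases. HIF1 binds hypoxia response elements, whose core is ACGTG or GCGTG. Beyond glycolysis its targets serve blood vessel growth and tone, protein folding and collagen in the endoplasmic reticulum, the turnover of mitochondria and the restraint of growth.

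The letters ACGTG and GCGTG were looked for on both strands of the 250 bases before the start of each gene in RefSeq promoter windows of GRCm38.p6. The windows matched 8 of the 10 genes by symbol, all but Ndrg1 and Bhlhe40. In the first window of each gene, at least 1 core stood in 7 of these 8 genes, with 2 in Adm and Ddit4, 3 in Ero1a, P4ha1 and P4ha2, 4 in Ankrd37 and 5 in Bnip3, where overlapping cores on opposite strands count separately. The first window of Vegfa held none, and its second, at a later start, held 2, 1 of each core. ACGTG stood in 6 of the 8 first windows, and Bnip3 also held CACGTG, a palindrome that contains ACGTG on either strand. Over all 32851 windows, either core stood in 38.6%, ACGTG in 16.6%, GCGTG in 28.2% and CACGTG in 6.02%. The windows of these genes were rich in G and C (56.8 to 80.8%, against a median of 52.4% over all windows). The 190 bases that end just before the start are shown for 3 genes that stimulated Nos2-/- BMDMs expressed below stimulated WT and for 2 that were not called between them, 5′ to 3′ along the gene, with each core and its reverse complements CACGT and CACGC in capitals.
Adm, chr7:110627467-110627656, plus strand: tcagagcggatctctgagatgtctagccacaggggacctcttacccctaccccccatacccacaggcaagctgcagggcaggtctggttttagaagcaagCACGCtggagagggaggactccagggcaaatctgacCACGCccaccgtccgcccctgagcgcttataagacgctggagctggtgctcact
Ero1a, chr14:45318573-45318762, minus strand: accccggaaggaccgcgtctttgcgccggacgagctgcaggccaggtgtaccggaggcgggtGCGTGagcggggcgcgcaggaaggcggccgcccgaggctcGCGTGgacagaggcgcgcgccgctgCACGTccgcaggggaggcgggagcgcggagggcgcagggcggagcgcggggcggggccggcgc
P4ha2, chr11:54100734-54100923, plus strand: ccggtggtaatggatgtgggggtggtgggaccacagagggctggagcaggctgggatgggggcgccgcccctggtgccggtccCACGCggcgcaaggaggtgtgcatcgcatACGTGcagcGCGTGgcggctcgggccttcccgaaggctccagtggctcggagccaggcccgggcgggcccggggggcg
Bnip3, chr7:138909507-138909696, minus strand: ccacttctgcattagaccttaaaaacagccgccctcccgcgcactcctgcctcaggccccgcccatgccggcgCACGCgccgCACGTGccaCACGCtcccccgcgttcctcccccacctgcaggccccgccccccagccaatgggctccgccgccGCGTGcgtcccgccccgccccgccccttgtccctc
Ddit4, chr10:59951771-59951960, minus strand: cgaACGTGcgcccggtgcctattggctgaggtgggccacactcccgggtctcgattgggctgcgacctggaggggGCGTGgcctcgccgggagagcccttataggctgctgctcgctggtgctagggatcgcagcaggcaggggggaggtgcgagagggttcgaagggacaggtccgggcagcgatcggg
Cores stood before genes of both kinds. The core nearest the start began at position −54 in Adm, −63 in Ero1a, −69 in P4ha2, −35 in Bnip3 and −115 in Ddit4, where −1 is the last base before the start. A match of letters describes the window and is not a measured binding site.

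All 10 genes were higher after stimulation in WT BMDMs, and all 10 were higher in Nos2-/- BMDMs. Over all genes, 29.6% were called higher in WT and 26.3% in Nos2-/-. The median log2 fold change of the 10 was 1.92 in WT and 1.27 in Nos2-/-, beside medians over all genes of 0.07 and 0.05. The 2 comparisons use different arrays. In both genotypes the 3 stimulated arrays lay above the 3 untreated ones for 10 of 10 genes, a separation seen upward for 34.7% of all genes in WT and 30.5% in Nos2-/-. The arrays measure RNA of whole cultures, so fewer cells of a type and less RNA per cell cannot be told apart in any of these values.

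After stimulation, limma called 5 of the 10 genes lower in Nos2-/- than in WT, 0 higher and 5 neither (at an unadjusted p under 0.05, 8 were lower and 0 higher, as 1517 of all 18193 genes were lower at that p). The 5 were Adm, Vegfa, Ankrd37, P4ha2 and Ero1a. Lower calls made up 1.91% of all genes in this comparison. The median log2 difference of the 10 genes was −0.46, against −0.01 over all genes, and 9 of the 10 differences were below 0. The rise with stimulation itself was smaller in Nos2-/- for 3 genes, Adm, Ankrd37 and Ero1a, by the interaction of genotype and stimulation, here called the difference between the responses, which passed for 0.676% of all genes in that direction. Before stimulation 0 of the 10 genes were called between the genotypes by limma or by the linear model without moderation, and 0 had an unadjusted limma p under 0.05. Of all genes, 0.011% were called.

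**Figure D1:**
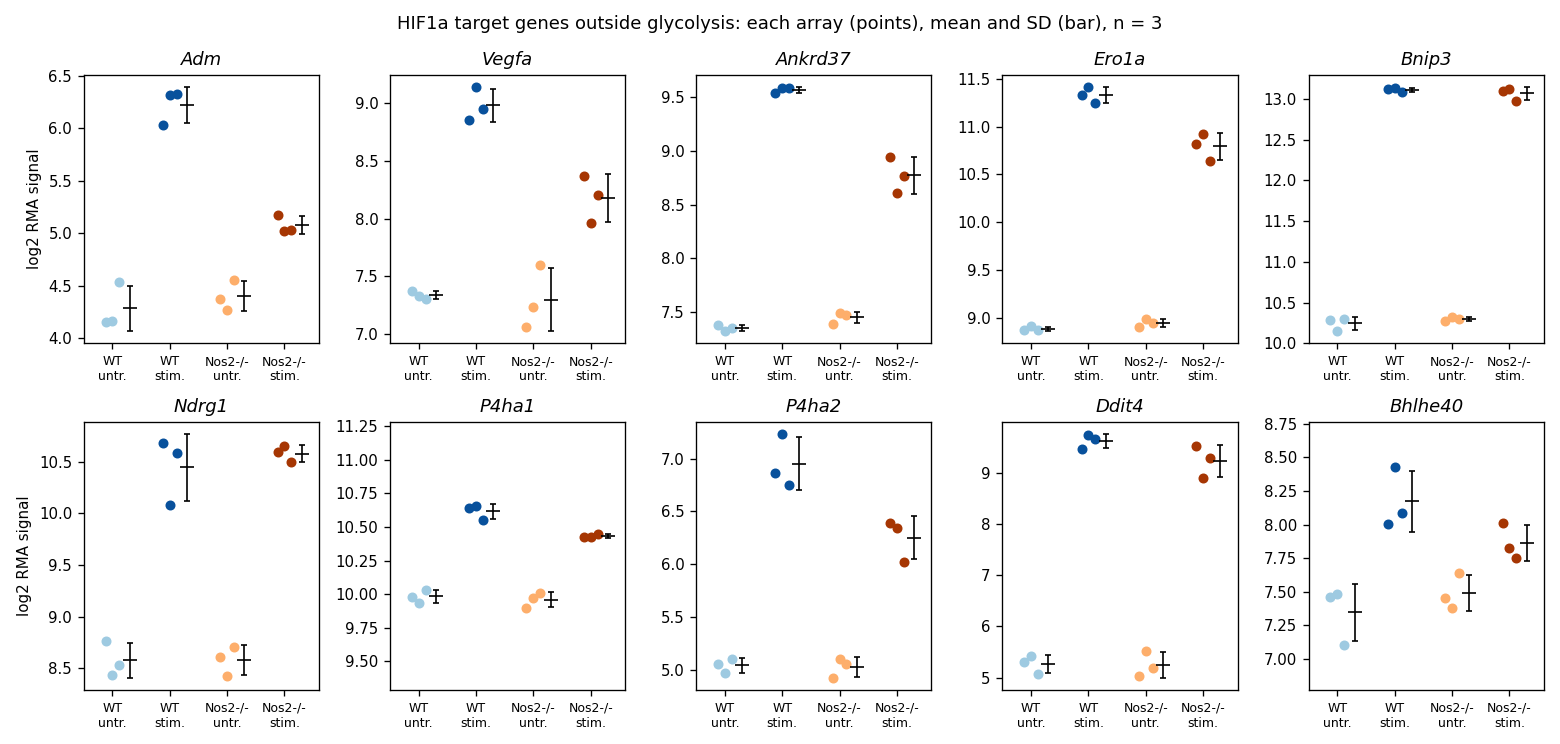
Log2 RMA signal (vertical axis, own range in each panel) of the 10 genes on each array, by group on the horizontal axis, with points for the 3 arrays and a bar for their mean and SD. All stimulated arrays lie above the untreated arrays of their genotype, and for Adm, Vegfa, Ankrd37, Ero1a, P4ha1 and P4ha2 the 3 stimulated Nos2-/- arrays lie below the 3 stimulated WT arrays.

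Adm and Vegfa encode secreted proteins. Adm gives adrenomedullin, a peptide that widens blood vessels and tightens endothelium. In WT, Adm read 4.16, 4.16 and 4.54 untreated and 6.03, 6.32 and 6.33 stimulated. In Nos2-/- it read 4.38, 4.27 and 4.56 untreated and 5.18, 5.03 and 5.03 stimulated. The untreated arrays of the genotypes overlapped, whereas all 3 stimulated Nos2-/- arrays lay below all 3 stimulated WT arrays. The rise was 3.83-fold in WT and 1.60-fold in Nos2-/-. After stimulation the log2 difference was −1.15 (95% CI −1.39 to −0.90, adjusted p = 5.97e-05 from limma), which is 2.21-fold lower in Nos2-/-. The difference between the responses was −1.26 (95% CI −1.61 to −0.91, adjusted p = 0.00133 from limma). Adm was dim before stimulation, when 27.9% of all probe sets naming 1 gene had a lower mean in WT, against 58.8% after it.

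The probe set used for Adm is of the _x_at kind, whose probes can match other transcripts, and a second one that is not separated the groups further. It read 6.58, 6.43 and 6.61 on the stimulated WT arrays and 4.61, 4.75 and 4.84 on the stimulated Nos2-/- arrays, with 3.69 to 4.10 on the 6 untreated arrays. Its log2 difference after stimulation was −1.81 (95% CI −2.04 to −1.57, adjusted p = 3.71e-07 from limma over all probe sets naming 1 gene). Its rise was 2.66 in WT and 0.76 in Nos2-/-. The probe sets of Adm therefore gave 1 direction with different sizes.

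Vegfa encodes vascular endothelial growth factor A, the main growth factor for new vessels. Its signals in WT were 7.38, 7.33 and 7.31 untreated and 8.85, 9.14 and 8.94 stimulated. In Nos2-/- they were 7.07, 7.23 and 7.60 untreated and 8.37, 7.96 and 8.21 stimulated, so the untreated arrays spread around those of WT while the stimulated ones all lay below. The log2 difference after stimulation was −0.80 (95% CI −1.08 to −0.52, adjusted p = 0.00301 from limma), or 1.74-fold lower, and the other probe set gave −0.69 and was also called. Vegfa rose 3.11-fold in WT and 1.84-fold in Nos2-/-. The difference between the responses was −0.76 (95% CI −1.15 to −0.37) and did not pass the test (adjusted p = 0.0793 from limma). It was called under 4 of 23 alternatives, which include the looser thresholds of the methods (adjusted p = 0.232 from the linear model without moderation). Without the first untreated Nos2-/- array, which had the lowest untreated value, it was −0.88 (adjusted p = 0.0439 from limma). Without the third, which had the highest, it was −0.61 (adjusted p = 0.118 from limma). Leaving out any other array gave no call.

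Ero1a, P4ha1 and P4ha2 encode enzymes of the endoplasmic reticulum. Ero1a passes electrons from protein disulfide isomerase to oxygen and so drives disulfide bonds. It read 8.87, 8.91 and 8.86 in untreated and 11.33, 11.42 and 11.25 in stimulated WT. Untreated Nos2-/- arrays gave 8.90, 8.98 and 8.95 and stimulated ones 10.81, 10.93 and 10.64. Ero1a thus rose strongly in both genotypes, 5.48-fold in WT and 3.61-fold in Nos2-/-, and the stimulated groups did not overlap. The log2 difference after stimulation was −0.54 (95% CI −0.70 to −0.38, adjusted p = 0.001 from limma), or 1.45-fold lower in Nos2-/-. The difference between the responses was −0.60 (95% CI −0.83 to −0.37, adjusted p = 0.0147 from limma). That call was lost without the first untreated WT array (adjusted p = 0.053), with the mean of the 3 probe sets (adjusted p = 0.0551) and in a linear model without moderation (adjusted p = 0.05). Of the other 2 probe sets of Ero1a, 1 was called lower after stimulation (−0.56) and 1 was not (−0.35, adjusted p = 0.0811 from limma). Neither of these was called for the difference between the responses. They gave −0.58 (adjusted p = 0.061 from limma) and −0.38 (adjusted p = 0.349 from limma).

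P4ha1 and P4ha2 are alternative catalytic subunits of collagen prolyl 4-hydroxylase, which stabilizes collagen and belongs, like the Egln enzymes, to the dioxygenases that use oxygen, iron and oxoglutarate. P4ha2 read 5.06, 4.97 and 5.10 in untreated and 6.87, 7.23 and 6.75 in stimulated WT. In Nos2-/- the untreated arrays gave 4.92, 5.10 and 5.06 and the stimulated arrays 6.39, 6.34 and 6.02. The untreated values were interleaved, and every stimulated Nos2-/- array was below every stimulated WT array. P4ha2 was 1.63-fold lower in stimulated Nos2-/- (log2 difference −0.70, 95% CI −0.96 to −0.44, adjusted p = 0.00462 from limma). The difference between the responses, −0.69 (95% CI −1.05 to −0.32), did not pass the test (adjusted p = 0.0904 from limma). P4ha2 lies on chromosome 11, as Nos2 does, with 481 coding genes between them in RefSeq order. Whether this position bears on its values was not tested. The untreated log2 difference of P4ha2 was −0.01 (95% CI −0.27 to 0.24).

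P4ha1 had smaller changes. It read 9.98, 9.94 and 10.03 in untreated and 10.64, 10.65 and 10.55 in stimulated WT, and 9.90, 9.97 and 10.01 in untreated and 10.43, 10.42 and 10.45 in stimulated Nos2-/-. The rise was 1.55-fold in WT and 1.39-fold in Nos2-/-. The stimulated groups did not overlap, but the log2 difference of −0.18 (95% CI −0.31 to −0.06) did not pass the test (adjusted p = 0.141 from limma). It was called under 3 of 23 alternatives, and the other probe set gave −0.25 (adjusted p = 0.0951 from limma).

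Bnip3, Ddit4 and Ndrg1 belong to stress responses. Bnip3 encodes a protein of the outer mitochondrial membrane that marks mitochondria for autophagy. Its signals in WT were 10.29, 10.15 and 10.30 untreated and 13.12, 13.13 and 13.08 stimulated. In Nos2-/- they were 10.28, 10.33 and 10.29 untreated and 13.10, 13.13 and 12.98 stimulated. The genotypes overlapped in both states, and the rise was 7.28-fold in WT and 6.81-fold in Nos2-/-. The log2 difference after stimulation was −0.04 with a 95% CI of −0.18 to 0.10 (adjusted p = 0.819 from limma), so the interval runs from 0.882-fold to 1.07-fold. Stimulated Bnip3 stood near the top of the arrays, with 99.5% of probe sets naming 1 gene below its mean in WT. The highest value of any probe set in the series was 14.7.

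Ddit4 encodes an inhibitor of the growth kinase mTORC1 and had the largest rise of the 10 genes in both genotypes. It went from 5.30, 5.42 and 5.07 to 9.46, 9.73 and 9.66 in WT, 20.4-fold, and from 5.03, 5.52 and 5.18 to 9.51, 8.89 and 9.28 in Nos2-/-, 15.8-fold. The stimulated groups overlapped at 1 Nos2-/- array. The log2 difference after stimulation was −0.39 (95% CI −0.72 to −0.05) and did not pass the test (adjusted p = 0.245 from limma). It was −0.22 without the second stimulated Nos2-/- array, the lowest of its group.

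Ndrg1 encodes a cytoplasmic protein induced by hypoxia, differentiation and metal shortage, and has 5 probe sets. The one used read 8.77, 8.43 and 8.53 in untreated and 10.68, 10.08 and 10.58 in stimulated WT. In Nos2-/- it read 8.60, 8.42 and 8.71 untreated and 10.59, 10.65 and 10.49 stimulated. Groups of the same treatment overlapped, and the log2 difference after stimulation was 0.13 (95% CI −0.16 to 0.43, adjusted p = 0.714 from limma). Over the 5 probe sets this difference ran from 0.03 to 0.20, with 0 called. Ndrg1 was the only 1 of the 10 genes whose value was above 0 in this comparison, and without the second stimulated WT array, the lowest of its group, it was −0.05. Its rise was 3.66-fold in WT and 4.01-fold in Nos2-/-.

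Ankrd37, which encodes a small ankyrin repeat protein, read 7.38, 7.32 and 7.35 in untreated and 9.54, 9.58 and 9.59 in stimulated WT. In Nos2-/- it read 7.39, 7.49 and 7.47 untreated and 8.95, 8.60 and 8.77 stimulated. Ankrd37 rose 4.65-fold in WT and 2.50-fold in Nos2-/- and was 1.74-fold lower in stimulated Nos2-/- (log2 difference −0.80, 95% CI −0.96 to −0.63, adjusted p = 4.56e-05 from limma). The difference between the responses was −0.89 (95% CI −1.13 to −0.66, adjusted p = 0.000873 from limma). Ankrd37 was the only 1 of the 10 genes whose untreated arrays did not overlap. They lay slightly higher in Nos2-/-, the opposite direction to the stimulated arrays, at a log2 difference of 0.10 (95% CI −0.07 to 0.26) that was not called. Of all genes, 6.24% were separated upward in this way.

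Bhlhe40 encodes a helix-loop-helix repressor that shapes cytokine output and circadian rhythm. It read 7.46, 7.48 and 7.10 in untreated and 8.01, 8.43 and 8.08 in stimulated WT, and 7.45, 7.38 and 7.64 in untreated and 8.01, 7.83 and 7.75 in stimulated Nos2-/-. The rise was 1.77-fold in WT and 1.29-fold in Nos2-/-, where it was the weakest of the 10 (adjusted p = 0.0225 from limma). That call was lost without the first untreated (adjusted p = 0.0606), the second untreated (0.0835) or the first stimulated Nos2-/- array (0.0885), in the linear model without moderation (0.0661) and at the thresholds of the methods. The stimulated groups overlapped, and their log2 difference of −0.31 (95% CI −0.58 to −0.04) did not pass the test (adjusted p = 0.251 from limma). Without the second stimulated WT array, the highest, it was −0.18.

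In all, the stimulated arrays of the genotypes did not overlap for 6 of the 10 genes, each lower in Nos2-/-, against 8.89% of all genes separated downward, and they overlapped for Bnip3, Ndrg1, Ddit4 and Bhlhe40. Among the 347 genes called lower in stimulated Nos2-/-, ordered by log2 fold change, Adm ranked 26, Vegfa 68, Ankrd37 69, P4ha2 85 and Ero1a 146. The rise in Nos2-/- as a share of that in WT, both as log2 fold changes, ran from 34.9% for Adm to 107% for Ndrg1. The other shares were 45.0% for Bhlhe40, 53.6% for Vegfa, 59.7% for Ankrd37, 64.0% for P4ha2, 74.9% for P4ha1, 75.5% for Ero1a, 91.5% for Ddit4 and 96.6% for Bnip3. A small rise gives an uncertain share, as for Bhlhe40 and P4ha1. Ddit4 and Bnip3, with the largest rises in WT, had among the highest shares. The median difference between the responses was −0.53 over the 10 genes and −0.01 over all genes, with 9 of 10 below 0. The comparison of the stimulated genotypes and that of the responses share their stimulated arrays.

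**Figure D2:**
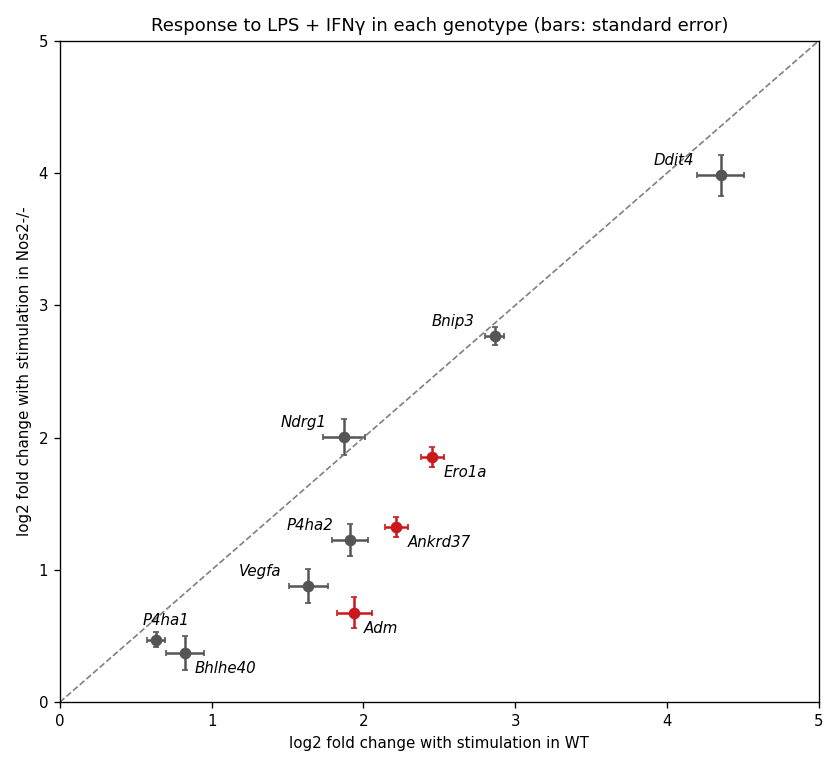
Log2 fold change with stimulation in WT (horizontal axis) and in Nos2-/- (vertical axis) for the 10 genes, with bars for the standard error and a dashed line where both are equal. Adm, Ankrd37 and Ero1a, in red, were called for the difference between the responses, and Ndrg1 is the only gene above the line.

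The 19 probe sets were tested over the 34945 that name exactly 1 gene, which are all probe sets meant in this paragraph. They gave the same split, except within Ero1a. All 19 were called higher with stimulation in WT and all 19 in Nos2-/-, beside 26.5% and 24.5% of all probe sets. After stimulation 8 of the 19 were lower in Nos2-/- and 11 were not called, beside 1.54% of all probe sets called lower. The 8 were both of Adm, both of Vegfa, 2 of the 3 of Ero1a and the single ones of Ankrd37 and P4ha2. The difference between the responses was called for 4, each below 0, beside 0.509% of all probe sets. They were both of Adm, the single one of Ankrd37 and 1 of the 3 of Ero1a. Probe sets of 1 gene read the same RNA and are not separate measurements of a condition.

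**Figure D3:**
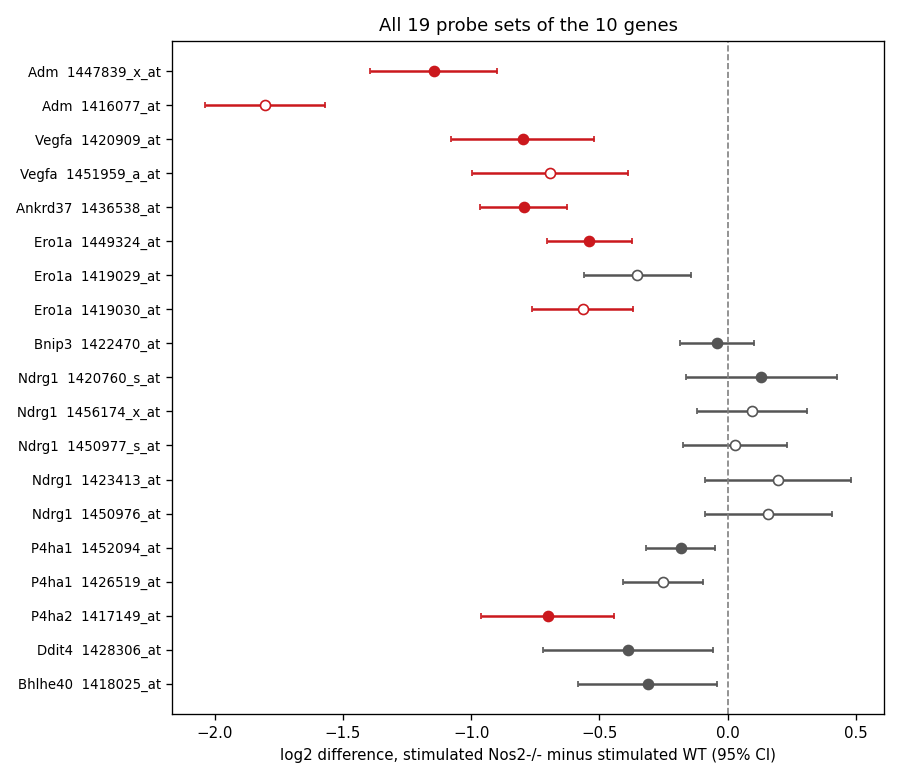
Log2 difference between stimulated Nos2-/- and stimulated WT BMDMs (horizontal axis) with its 95% confidence interval for each of the 19 probe sets, filled where the probe set represents its gene and red where it was called. The 2 probe sets of Adm lie farthest to the left, at −1.15 and −1.81, and the 5 of Ndrg1 lie between 0.03 and 0.20.

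Hif1a itself, the regulated subunit of HIF1, was close between the genotypes in the probe set of highest mean. It read 11.28, 11.24 and 11.23 in untreated and 13.15, 13.27 and 13.19 in stimulated WT, and 11.26, 11.23 and 11.21 in untreated and 13.16, 13.21 and 13.23 in stimulated Nos2-/-. The log2 rise was 1.96 in WT and 1.97 in Nos2-/-, and the genotypes overlapped after stimulation (95% CI of the log2 difference −0.13 to 0.12, adjusted p = 0.986 from limma). Of its 4 probe sets, the dimmest went another way. It read 4.62, 4.54 and 4.53 in untreated and 5.81, 5.80 and 5.79 in stimulated WT, and 4.24, 4.09 and 4.32 in untreated and 6.11, 5.90 and 6.14 in stimulated Nos2-/-, lower before and higher after stimulation without overlap. Neither genotype difference of this probe set was called by limma. It was −0.35 untreated (adjusted p = 0.852 from limma) and 0.25 stimulated (adjusted p = 0.134 from limma). Its difference between the responses was 0.60 (95% CI 0.36 to 0.84, adjusted p = 0.0235 from limma over all probe sets naming 1 gene). That of the other 3 ran from −0.02 to 0.11, with 0 called. HIF1a is controlled mainly as a protein, which arrays do not measure. In the paper's immunoblots of nuclear extracts, made at a later time than these arrays, HIF1a protein rose with stimulation in both genotypes. The paper describes the stabilization of HIF1a as independent of NOS2. Of the 10 genes for HIF subunits, Egln hydroxylases, Hif1an and Vhl, stimulation raised 6 and lowered 1 in WT, and raised 7 and lowered 1 in Nos2-/-. Over all 18193 genes, 5393 were called higher and 5166 lower in WT, and 4788 and 5134 in Nos2-/-. Between the stimulated genotypes limma called 347 of all genes lower in Nos2-/- and 188 higher. Of these HIF subunit, hydroxylase and Vhl genes it called 1 lower and 0 higher (3 and 1 at an unadjusted p under 0.05). This was Egln3, a hydroxylase and itself a HIF target, whose log2 rise was 4.50 in WT and 3.28 in Nos2-/- (log2 difference after stimulation −1.07, adjusted p = 0.000899 from limma).

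Other HIF targets outside glycolysis were read from a list of 40, of which 35 had a probe set of their own. In WT, stimulation raised 25 of the 35 and lowered 8, beside 5393 and 5166 of all 18193 genes. In Nos2-/- it raised 22 and lowered 8, beside 4788 and 5134 of all genes. Between the stimulated genotypes, 347 of all genes were called lower in Nos2-/- and 188 higher. Of the 35, 6 were called lower, 2 higher and 27 neither, with a median log2 difference of −0.08. The lower ones included Egln3 and Hmox1, the heme oxygenase that is also a target of Nrf2, with log2 rises of 2.18 in WT and 1.33 in Nos2-/-. Cxcr4, a chemokine receptor, fell with stimulation in both genotypes and farther in Nos2-/- (−6.32) than in WT (−4.81). Edn1, the vasoconstrictor endothelin 1, was higher in stimulated Nos2-/-, at a log2 difference of 1.18, so the vasoactive peptides Adm and Edn1 differed in opposite directions. Cp, an iron oxidase of plasma, and Ak4, a mitochondrial adenylate kinase, had the large log2 rises of 5.80 and 3.71 in WT and were not called between the stimulated genotypes.

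The glycolytic HIF targets, 18 measured of 21 listed, gave 1 lower and 0 higher call by limma between the stimulated genotypes. Of all genes, 1.91% were called lower there. At an unadjusted p under 0.05, 3 of the 18 were lower and 0 higher, and their median log2 difference was −0.07. The called one was the glucose transporter Slc2a3 (−0.53), which fell with stimulation in both genotypes. In this list 12 genes rose with stimulation in WT and 12 in Nos2-/-, beside 29.6% and 26.3% of all genes. Among them were Pfkfb3 (5.76 and 5.91), which makes the activator of phosphofructokinase, the lactate exporter Slc16a3 (2.79 and 2.64) and the glucose transporter Slc2a1 (2.71 and 2.29). For Slc2a1 the difference between the responses was −0.41 (adjusted p = 0.0501 from limma). Whether the 10 genes differ from either list was not tested, because the set was put together with results of these data known.

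**Figure D4:**
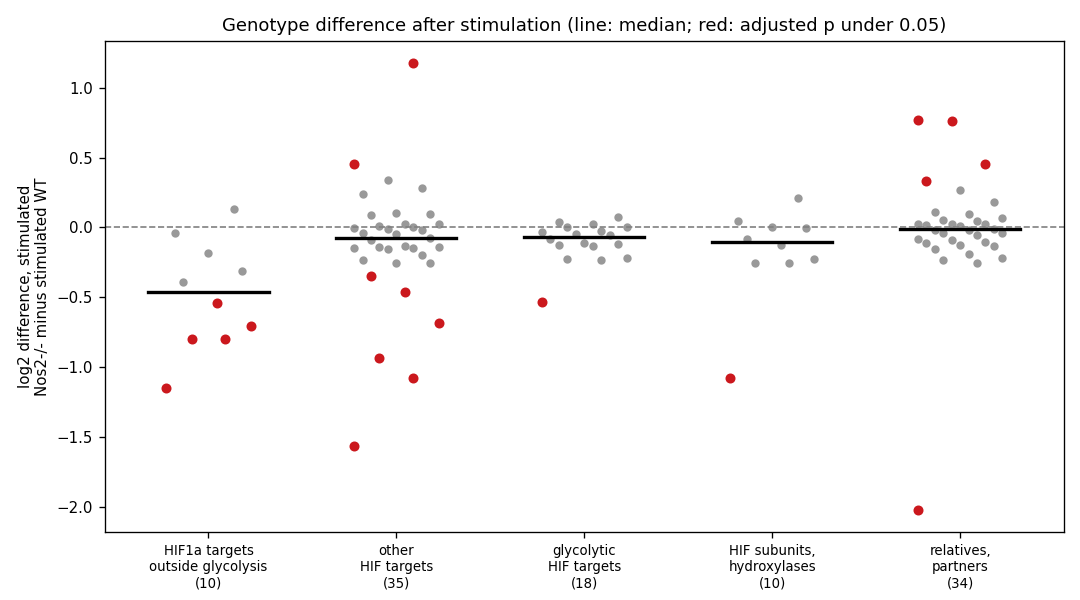
Log2 difference between stimulated Nos2-/- and stimulated WT BMDMs (vertical axis) for each gene of the 10 and of 4 lists (horizontal axis, number measured in parentheses), with the median as a line and called genes in red. The medians are −0.46 for the 10 genes, −0.08 for other HIF targets, −0.07 for glycolytic HIF targets, −0.10 for HIF subunits and hydroxylases and −0.01 for relatives and partners, and some genes stand in more than 1 list.

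Relatives and partners of the 10 genes, 34 measured of 35 listed, moved in both directions. In this list 13 genes rose and 15 fell with stimulation in WT, and after stimulation 4 were higher and 1 was lower in Nos2-/-. Over all 18193 genes, 5393 rose and 5166 fell in WT, and 188 were higher and 347 lower in stimulated Nos2-/-. For Vegfa, the co-receptor Nrp1 changed by −2.98 on the log2 scale in WT and −4.83 in Nos2-/-, and the related ligand Vegfc by −1.29 and −0.72. Flt1, a receptor of Vegfa, rose by 0.83 in WT and 1.24 in Nos2-/-. For Adm, the receptor partner Ramp3 rose by 1.82 in each genotype. Txnip, an inhibitor of thioredoxin that binds Ddit4, changed by −1.27 in WT and −0.48 in Nos2-/- and was higher in stimulated Nos2-/- by 0.77.

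The genes whose 4 group means ran most like those of the 3 genes with a called difference between the responses were found by the Euclidean distance between group means, after each gene was centred on their average. Nearest to Adm were Tnfsf4 (distance 0.14), Treml4 (0.23) and Ppfibp2 (0.27). Nearest to Ankrd37 were Ptger2 (0.12), Hmox1 (0.17) and Zdhhc18 (0.17). Nearest to Ero1a were Serpinb9 (0.14), Gca (0.25) and Gdap10 (0.26). The distances are log2 units over 4 group means and describe likeness only.

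Checks of the cultures gave the following. Arrays of a group correlated at 0.996 or above across probe sets. Nos2 had 1 probe set, which rose in both genotypes and had a log2 difference of −2.03 between stimulated Nos2-/- and stimulated WT, and since the deleted part of the gene is not tied to it here, it does not check the genotypes. Macrophage markers were bright, with the colony-stimulating factor receptor Csf1r at a mean of 13.7 and lysozyme Lyz2 at 14.3 in both stimulated groups, and their summed linear signal was 74823 to 77074 in stimulated WT and 75348 to 76957 in stimulated Nos2-/-. Of 49 marker genes of macrophages and 6 other cell types, 0 were called by limma between the stimulated genotypes, and 2 had an unadjusted p under 0.05, both higher in Nos2-/-. Of all 18193 genes, 535 were called in this comparison and 2740 had an unadjusted p under 0.05. With so few genes called, 0 of 49 does not show that the cultures were alike in composition. The summed linear signal of 8 neutrophil markers was 5905 to 6127 in stimulated WT and 7577 to 7887 in stimulated Nos2-/-, mostly S100a8, which activated macrophages also express. That of 7 dendritic cell markers was 519 to 646 and 647 to 753. Among these, Ccr7 rose with stimulation from a mean of 4.91 to 7.83 in WT and from 5.02 to 8.33 in Nos2-/-. After stimulation 5 of the 7 were higher in Nos2-/- and 2, Flt3 and Xcr1, were lower, with 0 called. RMA values have no true zero, so no marker can be called absent, and the part of these markers in the lower target genes was not tested.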

How the data were processed

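RNA of 12 BMDM cultures, 3 per group, was measured on Affymetrix Mouse Genome arrays. The authors ran RMA in Partek (its version is not given in the sources used here) and deposited log2 values for 45101 probe sets, with array medians of 5.14 to 5.21 and values from 2.13 to 14.7. RMA draws low signals together, so changes of dim genes can be understated. After 64 controls were left out, 34945 of 45037 probe sets named exactly 1 gene, 932 several and 9160 none, and the first kind gave 18193 genes. Each gene was represented by its probe set of highest mean. No filter was applied to low values, so every one of the 10 genes was tested. Groups came from the sample titles.

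The two-sided moderated test of limma 3.58.1 (R 4.3.3, lmFit then eBayes) was fitted to 4 group means over all 12 arrays at once, in place of the analysis of variance of the methods, whose thresholds (1.5-fold, false discovery rate under 0.5) were an alternative. Genes were called at an adjusted p under 0.05. Intervals are 95% confidence intervals. Comparisons of genotypes after stimulation, of genotypes untreated, of treatments within each genotype and of the responses were made. Array signals carry no count of molecules, and precision rests on the 3 arrays per group. The method was tested on simulated data.

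The 10 genes and the lists beside them were chosen with earlier results of these data known, so they were not tested as sets. The genes named were the 10 with all their probe sets, Nos2 and Hif1a, in each list up to 4 of the largest called genotype differences and up to 4 of the largest changes with stimulation in WT, and the 3 genes most like each of the 10 with a called difference between the responses. Listed genes that no probe set names alone are not analysed here. Alternatives tried were a fit to the 2 groups compared alone (where a comparison has 2), a linear model without moderation, the thresholds above, an intensity trend, centring on array medians, quantile normalization, only genes at or above the median signal, the mean of all probe sets, leaving out probe sets ending in _s_at, _x_at or _a_at, a replicate block, and dropping each array in turn. Figures were drawn with matplotlib 3.10.9 in Python 3.11.15.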

Additional observations from a re-analysis of the deposited data

Results flagged for a closer look

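By the interaction of genotype and stimulation, 3 of the 10 genes responded differently in Nos2-/- and WT BMDMs (limma, adjusted p under 0.05). The difference in log2 fold change, Nos2-/- minus WT, was −1.26 for Adm, −0.89 for Ankrd37 and −0.60 for Ero1a. In each of them the 3 stimulated Nos2-/- arrays lay below the 3 stimulated WT arrays. Of the probe sets of Ero1a, only the one used was called in this test.

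Of the genes named from the lists, 6 passed the same test. All 6 had been picked for a large called genotype difference, so their number is not a rate. In the whole lists, the test called 4 lower and 1 higher of the 35 other HIF targets and 0 of the 18 glycolytic ones. It called 1 lower of the 10 HIF subunit and hydroxylase genes, and 1 lower and 1 higher of the 34 relatives and partners. Over all 18193 genes, 123 were lower and 55 higher. The difference was −1.51 for the chemokine receptor Cxcr4, which fell in both genotypes, −1.22 for the hydroxylase Egln3, −0.84 for the heme oxygenase Hmox1 and −1.85 for the co-receptor Nrp1, which also fell in both. It was 0.92 for Edn1, which rose farther in Nos2-/-, and 0.78 for Txnip, which fell less there.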

How the results depend on the processing

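Under 23 alternatives, 1122 of 1140 values for the 10 genes kept their side of the threshold, 10 were no longer called and 8 were newly called. Many of these values could move little, so the total overstates how much was tried. Leaving out an array outside the groups compared keeps the log2 value, as does testing over all probe sets. For the difference between the responses, the fit to the groups compared is the main fit. The sign changed in 16 values, called in neither setting, 13 of them between the untreated genotypes and 3 in Bnip3 and Ndrg1, each without 1 stimulated array. All 10 genes were higher after stimulation in WT under every alternative that tested them, and Adm and P4ha2 were not tested where only genes at or above the median signal were kept. In Nos2-/- 8 to 10 were called. Between the stimulated genotypes 4 to 6 of the 10 were called, and 5 whichever array was left out. The adjusted p ranged from 0.00038 to 0.036 for Vegfa and from 0.0018 to 0.0493 for P4ha2. For the difference between the responses 3 of the 10 genes were called, 5 at the thresholds of the methods, where Vegfa and P4ha2 joined, and 2 to 4 with 1 array left out. The adjusted p ranged from 2.01e-06 to 0.0343 for Adm, from 0.000103 to 0.0132 for Ankrd37 and from 0.00112 to 0.0551 for Ero1a. Without probe sets ending in _s_at, _x_at or _a_at, Adm was represented by its other probe set and its difference between the responses was −1.90. Quantile normalization was run on the 18193 genes, each by its probe set of highest mean, and not on all deposited probe sets. It raised the rise of Bhlhe40 in Nos2-/- from 0.37 to 0.62. The cause was not tested.

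Replicate numbers gave no clear pairing of the arrays. Deviations of 18 pairs of the same number correlated between −0.26 and 0.21, with 2 over 0.1. In 10 of the 18 the array of the same number correlated best of the 3 in the other group. With 3 arrays per group, a weak pairing cannot be told from none. With a replicate block, 10 of the 10 genes were called with stimulation in each genotype, 5 between the stimulated genotypes, 0 untreated and 3 for the responses, as without it. Over all genes the calls went from 535 to 475 between the stimulated genotypes and from 178 to 151 for the responses.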
